A study of Mus musculus with 4 samples.

Results

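The 10 genes described here code for vascular guidance receptors and for secreted guidance proteins, and were followed across 4 stages of mouse heart development. They are the receptors Unc5b, Robo4, Robo1 and Plxnd1, and the ligands Slit2, Slit3, Ntn4, Sema3c, Sema3d and Sema3g. They were chosen by name and not by a cutoff on a measured value, but with earlier results of these data known. Counts of called genes among them therefore describe these 10 genes only. All 10 were found among the 27998 genes of the files.

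Axon guidance proteins also steer blood vessels. Several netrins bind receptors of the Unc5 and Dcc families, and Slits bind Robo receptors such as Robo1. Class 3 semaphorins act through neuropilins and plexins. These proteins either attract or repel the growing front of a vessel. Binding between the ligands and receptors of this set, such as Ntn4 with Unc5b or Slits with Robo4, was not tested. In endothelium, Unc5b is known as a receptor of tip cells and arteries, Robo4 as an endothelial Robo receptor that helps keep vessels stable, and Plxnd1 as the plexin that blood vessels use to read semaphorins.

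CD31+/CD45- cells were sorted from hearts of the mouse strain C57Bl6J at embryonic days 12 (E12) and 15 (E15), on postnatal day 2 (P2) and at 8 weeks of age (adult). Each stage gave 1 single-cell library, from pooled animals. The pools held 37 (E12), 48 (E15), 21 (P2) and 6 animals (adult). All cells were frozen after sorting and thawed. Dead cells were then removed by a kit at E12 and E15 and by another sort at P2 and in the adult, and P2 and adult hearts were digested with Collagenase II before the Collagenase/Dispase step that all hearts had. No stage had a second library, so no test between groups could be made and no p-value is given. Stage, digestion, way of removing dead cells and depth cannot be told apart.

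Captured transcripts were counted by unique molecular identifiers (UMIs) for each gene and barcode, where a barcode stands for a droplet called as a cell. In stage order the libraries held 5732, 6062, 5884 and 4242 barcodes, with a median depth of 1241, 1013, 4531.5 and 1510 UMIs. Any pair of libraries had between 25 and 60 barcode sequences in common. For a group of barcodes, the UMIs of each gene were added up and expressed as CPM, the gene's UMIs scaled to a fixed total for the group. Intervals are exact 95% intervals (Poisson for a level, conditional binomial for a ratio, binomial for a share) and cover counting error only, so the spread between animals is in none of them. A ratio was called when it was at least 2-fold in either direction, in genes with 10 or more UMIs expected in each group if both levels were equal. This is a rule of size and not a test.

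Barcodes were put into classes by marker genes. Endocardial barcodes had more UMIs of Npr3 and Tmem108 than of Fabp4, Cldn5 and Aplnr. Coronary barcodes had 2 or more UMIs of Fabp4, Cldn5 and Aplnr, and more than of Npr3 and Tmem108. In stage order there were 1716, 2115, 1082 and 75 endocardial and 113, 1254, 4596 and 4077 coronary barcodes. The coronary class took 78.1% of the P2 library and 96.1% of the adult library, vein, lymphatic and large artery barcodes included. Of the E12 endocardial barcodes, 596 had no UMI of the endothelial genes Pecam1, Cdh5 and Egfl7, and 63.9% lay within 1 UMI of the class limit. At E15, 545 endocardial barcodes had no such UMI and 56.0% lay within 1 UMI of the limit. At P2, 0 endocardial barcodes had no such UMI. Of the coronary barcodes, 59.3% lay within 1 UMI of the limit at E12, and 14.4% had no endothelial UMI at E15.

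Artery barcodes had 3 or more UMIs of Cxcl12, Glul, Alpl and Nebl. At E12 this class went against its name. Of its 332 barcodes, 257 had no UMI of Pecam1, Cdh5 and Egfl7 and 0 were coronary, and the collagen gene Col1a1 stood at 789 CPM there against 57.6 CPM in coronary barcodes. At E15, 41 of the 69 artery barcodes had no UMI of these endothelial genes. Artery values are therefore read at P2 (711 barcodes, 95.5% of them coronary) and in the adult (1875 barcodes, 99.1% coronary). The adult class was wide, with 44.2% of the library against 12.1% at P2. Among coronary barcodes outside the class, Cxcl12 stood at 409 CPM in the adult and 13.5 CPM at P2. The arterial connexin gene Gja5 was at 64.1 CPM inside and 27.5 CPM outside the adult class, against 123 and 10.4 CPM at P2. The adult class thus marks arteries less sharply than the P2 class. Non-endothelial barcodes, with no UMI of Pecam1, Cdh5 and Egfl7, numbered 2995 at E12 and 1867 at E15. At P2 they were 13, and of the 133 in the adult 101 were also coronary, so this class is read at E12 and E15. There too it overlapped the other classes. At E12, 596 of its barcodes were also endocardial and 7 coronary. At E15, 545 were also endocardial and 181 coronary, and Fabp4 stood at 554 CPM. The class is therefore a mixture, and its levels are not those of non-endothelial cells alone. In stage order 25.4%, 25.5%, 3.31% and 1.16% of barcodes were in none of the endocardial, coronary, artery and non-endothelial classes.

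The stretch before the start of transcription is shown for Unc5b, Robo4 and Sema3g, which were higher in coronary than in endocardial barcodes from E15 onwards, and for Plxnd1, which had like levels in both. Sequences are from RefSeq on GRCm38.p6, run 5′ to 3′ on the gene's strand and stop before the first annotated start. Capitals mark the GC box CCGCCC on either strand.
Unc5b, chr10:60831582-60831831, minus strand: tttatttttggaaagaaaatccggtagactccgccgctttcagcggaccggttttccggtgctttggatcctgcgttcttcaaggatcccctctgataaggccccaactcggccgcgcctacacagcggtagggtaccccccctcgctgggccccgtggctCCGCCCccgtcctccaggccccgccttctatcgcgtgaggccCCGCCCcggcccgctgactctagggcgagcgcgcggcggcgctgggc
Robo4, chr9:37401722-37401896, plus strand: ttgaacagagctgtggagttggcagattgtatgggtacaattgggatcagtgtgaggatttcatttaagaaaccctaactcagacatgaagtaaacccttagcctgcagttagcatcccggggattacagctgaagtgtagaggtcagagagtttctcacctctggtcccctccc
Sema3g, chr14:31217623-31217859, plus strand: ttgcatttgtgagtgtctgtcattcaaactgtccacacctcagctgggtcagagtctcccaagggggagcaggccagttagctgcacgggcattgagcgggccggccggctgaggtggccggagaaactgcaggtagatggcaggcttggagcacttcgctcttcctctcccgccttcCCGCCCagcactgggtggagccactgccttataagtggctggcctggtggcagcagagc
Plxnd1, chr6:115995006-115995255, minus strand: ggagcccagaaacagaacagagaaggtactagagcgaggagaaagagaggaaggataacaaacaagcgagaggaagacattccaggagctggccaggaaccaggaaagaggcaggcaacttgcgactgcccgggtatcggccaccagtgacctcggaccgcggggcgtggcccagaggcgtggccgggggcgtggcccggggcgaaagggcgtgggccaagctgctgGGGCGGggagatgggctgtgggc

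Windows from 250 bases before to 50 bases after the start were searched on both strands for short motifs, and all 10 genes had a window. The GC box letters CCGCCC were in the windows of 7 of the 10 genes and in 35.7% of 32851 windows, with 3 matches in Unc5b, 2 in Plxnd1, 1 in Sema3g and 0 in Robo4. The ETS letters CGGAAG were in 0 of the 10 windows and in 16.9% of all. The shorter letters GGAA were not searched. The Unc5b and Plxnd1 stretches above contain them, as does the Sema3g stretch on the other strand. The GATA letters GATAAG were found in Unc5b and in 7.44% of all windows, the RBPJ letters TGGGAA in Ntn4 and Sema3g and in 25.6% of all, and the SOX letters AACAAT in 0 of the 10 and in 10.7% of all. A match says only that the letters are present in the window.

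Coronary barcodes were compared with endocardial barcodes within each library. At E15, 6 of the 10 genes had enough UMIs and 4 were called, where 16.8% of 9115 genes were called. Unc5b, Robo4 and Sema3g were higher and Slit2 was lower in coronary barcodes. At P2, 9 genes had enough UMIs and 7 were called, against 18.3% of 11266 genes. Unc5b, Robo4, Sema3d and Sema3g were higher, and Slit2, Slit3 and Ntn4 lower. In the adult, 3 of 4 genes were called, against 22% of 3231 genes, and Unc5b, Robo4 and Sema3g were higher. The adult endocardial class held 208774 UMIs against 7188672 in the coronary class, so a gene reached the UMI minimum there mainly through its coronary count. Slit3 and Ntn4, with adult ratios of 0.0653 and 0.126, did not reach it, and nothing on the balance of directions is read from the adult genes that did. At E12, with 113 coronary barcodes, Plxnd1 alone had enough UMIs and it was not called, while 13.3% of 3113 genes were. The median log2 ratio of the genes with enough UMIs was 1.12 at E15 and 0.39 at P2 for the guidance genes, and -0.12 and -0.08 for all genes.

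**Figure D1:**
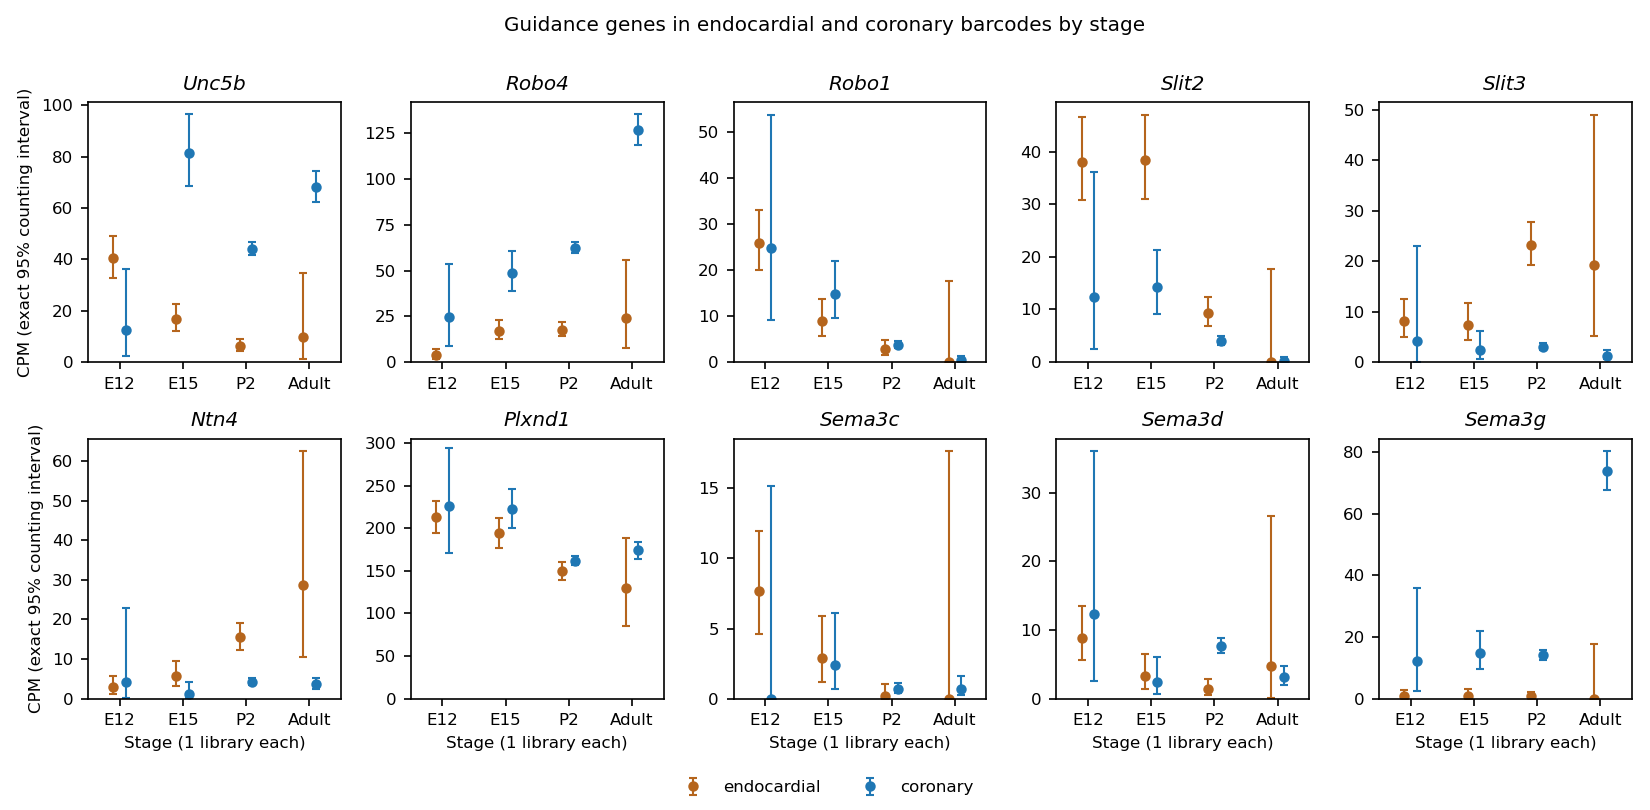
Level of each guidance gene (CPM, y axis from 0) in endocardial and coronary barcodes at the 4 stages (x axis), with exact 95% counting intervals and 1 library per point. Coronary points of Unc5b, Robo4 and Sema3g lie above endocardial points from E15 onwards, Slit3 and Ntn4 show the reverse at P2, and Plxnd1 is within 129 to 226 CPM throughout.

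Unc5b, a netrin receptor known from tip cells and arteries, lies on the minus strand of chromosome 10 from 60762593 to 60831581 (ENSMUSG00000020099, GRCm38). From E15 to the adult, coronary barcodes held 137, 1044 and 490 UMIs, which are 81.5, 44.2 and 68.2 CPM. Endocardial barcodes held 41, 33 and 2 UMIs, or 16.8, 6.37 and 9.58 CPM. At E15 the coronary level was thus 4.87 times the endocardial level (95% interval 3.41 to 7.08). It was 6.93 times the endocardial level at P2 (4.90 to 10.1) and 7.12 times in the adult (1.96 to 58.9), where the latter rests on 2 endocardial UMIs. The intervals of the 3 stages overlap. At E15 a Unc5b UMI was found in 9.89% of coronary barcodes (8.29% to 11.7%, median depth 1169.5 UMIs) and in 1.80% of endocardial barcodes (1.27% to 2.46%, median depth 1003). With every barcode thinned to 500 UMIs, which left out 66 coronary and 100 endocardial barcodes, the shares were 4.97% and 0.546%. The coronary class therefore held both more barcodes with the transcript and a higher summed level.

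The order of Unc5b levels was different at E12. Coronary barcodes held 3 UMIs (12.3 CPM), endocardial barcodes 100 (40.4 CPM) and non-endothelial barcodes 304 (73.4 CPM), and the coronary level was 0.305 times the endocardial (95% interval 0.0619 to 0.919). Values of free RNA and of mesenchyme stand beside this. E12 barcodes of at most 50 UMIs, taken here as empty droplets that hold free RNA, held Unc5b at 51.7 CPM (35.4 to 73.0), which is no lower than the endocardial level. Fabp4 stood at 677 CPM in these barcodes, against 51.5 CPM in E12 endothelial and 10.4 CPM in E12 non-endothelial barcodes. Their RNA thus differed in make-up from that of these classes, and its source was not tested. Where endocardial and coronary barcodes with 3 or more UMIs of mesenchyme genes were left out, the E12 endocardial level was 15.7 CPM (27 UMIs in 1352 barcodes) and the ratio 0.874 (0.17 to 2.84). The same step took the E15 ratio to 8.14 (5.05 to 13.8).

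Robo4 (ENSMUSG00000032125, chromosome 9, plus strand, 37401897 to 37415115) is the Robo receptor of endothelium. In stage order its coronary level was 24.7, 48.8, 62.6 and 127 CPM, from 6, 82, 1480 and 912 UMIs. Its endocardial level was 3.64, 17.2, 17.8 and 23.9 CPM, from 9, 42, 92 and 5 UMIs. Coronary barcodes were higher at each stage. The ratio was 2.84 at E15 (95% interval 1.94 to 4.23), and it was 3.52 at P2 (2.85 to 4.40) and 5.30 in the adult library (2.26 to 16.4). The E12 ratio of 6.79 (1.99 to 21.4) rests on 6 coronary UMIs. In the adult a Robo4 UMI was found in 19.2% of coronary barcodes (18.0% to 20.4%, median depth 1485) and in 6.67% of endocardial barcodes (upper end 14.9%, median depth 2609). Thinned to 500 UMIs, the share was 6.55% in coronary barcodes and 0 in the 75 endocardial barcodes.

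Sema3g (ENSMUSG00000021904, chromosome 14, plus strand, 31217860 to 31230352), a secreted semaphorin of endothelium, was nearly absent from the endocardial class. In stage order endocardial barcodes held 2, 2, 4 and 0 Sema3g UMIs, and coronary barcodes 3, 25, 335 and 531. In CPM the endocardial levels were 0.809, 0.818, 0.772 and 0, and the coronary levels 12.3, 14.9, 14.2 and 73.9. The coronary level was 18.2 times the endocardial at E15 (95% interval 4.54 to 159) and 18.4 times at P2 (7.10 to 67.7). In the adult the endocardial sum was 0, and the lower end of the 95% interval of the ratio was 4.17. A Sema3g UMI was found in 5.61% of P2 coronary barcodes (4.97% to 6.32%) and in 0.370% of P2 endocardial barcodes (0.101% to 0.944%), at median depths of 4561.5 and 4532 UMIs. After thinning these shares were 0.892% and 0.

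Plxnd1, the plexin of blood vessels, lies on the minus strand of chromosome 6 from 115954811 to 115995005 (ENSMUSG00000030123). Over the 4 stages its coronary level was 226, 223, 162 and 174 CPM, and its endocardial level 213, 194, 150 and 129 CPM. The coronary level was 1.06 times the endocardial at E12 (95% interval 0.791 to 1.41) and 1.15 times at E15 (0.998 to 1.32). At P2 it was 1.08 times (1.00 to 1.17) and in the adult 1.34 times (0.920 to 2.05). Each interval lay below 2 at E12, E15 and P2, and in the adult its upper end was 2.05. This receptor thus differed by less than 2-fold between the classes at the first 3 stages, within counting error.

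The ligands Slit2, Slit3 and Ntn4 were called higher in the endocardial class at P2, and Slit2 also at E15. Slit2 (ENSMUSG00000031558, chromosome 5, plus strand, 47983138 to 48307733) is a secreted ligand of Robo receptors. In stage order it stood at 38.0, 38.4, 9.26 and 0 CPM in endocardial barcodes, from 94, 94, 48 and 0 UMIs, and at 12.3, 14.3, 4.06 and 0.278 CPM in coronary barcodes. The coronary level was 0.372 times the endocardial at E15 (95% interval 0.227 to 0.587) and 0.438 times at P2 (0.307 to 0.633). The adult endocardial sum of 0 had an upper end of 17.7 CPM. At E12, free RNA held Slit2 at 43.6 CPM (28.7 to 63.5), no lower than the endocardial level.

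Slit3 (ENSMUSG00000056427, chromosome 11, plus strand, 35121224 to 35708507), the paralog of Slit2, had endocardial levels of 8.09, 7.36, 23.2 and 19.2 CPM at the 4 stages in order, from 20, 18, 120 and 4 UMIs. Its coronary levels were 4.12, 2.38, 3.09 and 1.25 CPM, from 1, 4, 73 and 9 UMIs. At P2 the coronary level was 0.133 times the endocardial, and the inverse had a 95% interval of 5.56 to 10.2. A Slit3 UMI was found in 9.24% of P2 endocardial barcodes and 1.46% of P2 coronary barcodes, at nearly equal median depths.

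Ntn4 (ENSMUSG00000020019, chromosome 10, plus strand, 93640681 to 93747207), a netrin of basement membranes, had endocardial levels of 2.83, 5.72, 15.4 and 28.7 CPM, from 7, 14, 80 and 6 UMIs. The coronary levels were 4.12, 1.19, 4.27 and 3.62 CPM. At P2 the coronary level was 0.277 times the endocardial (95% interval 0.204 to 0.376). The adult ratio was 0.126 (0.0507 to 0.374), under the UMI minimum because the adult library held 75 endocardial barcodes.

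**Figure D2:**
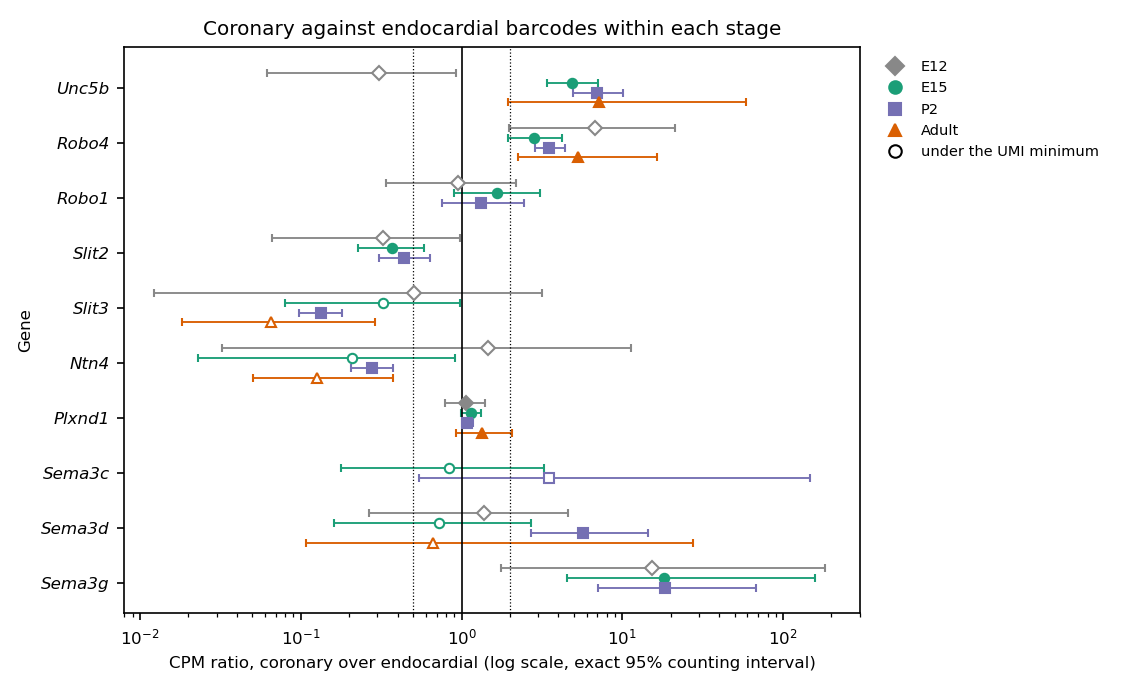
CPM ratio of coronary over endocardial barcodes (x axis, log scale, exact 95% counting intervals) for each gene (y axis) and stage, with dotted lines at 0.5 and 2 and open points where the UMI minimum was not met. Groups with 0 UMIs on one side have no point. Filled points of Unc5b, Robo4 and Sema3g lie above 2 and those of Slit2 between 0.372 and 0.438.

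Sema3c and Sema3d had low levels in both classes, and Robo1 had low levels in both from P2 onwards. Robo1 (ENSMUSG00000022883, chromosome 16, plus strand, 72308306 to 73046095), a Slit receptor of many cell types, stood at 24.7, 14.9, 3.81 and 0.417 CPM in coronary barcodes and at 25.9, 8.99, 2.90 and 0 CPM in endocardial barcodes. Its ratio was 1.65 at E15 (95% interval 0.895 to 3.08) and 1.31 at P2 (0.756 to 2.45), so neither a difference of 2-fold nor equal levels can be read from these counts. With barcodes of 3 or more mesenchyme UMIs left out, the Robo1 ratio was 2.07 at E12 (0.604 to 5.73) and 3.30 at E15 (1.47 to 8.10). With endothelial barcodes only it was 1.00 at E12 (0.307 to 2.57) and 2.29 at E15 (1.05 to 5.29). Sema3c (ENSMUSG00000028780, chromosome 5, plus strand, 17574281 to 17730268), a semaphorin known from the cardiac outflow tract, had 0, 4, 16 and 5 UMIs in coronary and 19, 7, 1 and 0 in endocardial barcodes. Sema3d (ENSMUSG00000040254, chromosome 5, plus strand, 12383385 to 12588948), a semaphorin linked to vein patterning, reached the UMI minimum at P2. There it had 182 coronary UMIs (7.70 CPM) and 7 endocardial UMIs (1.35 CPM), a ratio of 5.70 (2.71 to 14.4).

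Artery barcodes were then compared with the other coronary barcodes. At P2, 3 of 9 genes were called, where 5.46% of 10785 genes were called, and in the adult 2 of 6, where 5.14% of 10517 genes were. Sema3g was higher and Sema3d lower in the artery class in both libraries, and Unc5b was called at P2. The median log2 ratio of the guidance genes was -0.25 at P2 and -0.19 in the adult, against -0.01 and 0.00 for all genes.

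Sema3g stood at 53.0 CPM in P2 artery barcodes (209 UMIs) and at 6.33 CPM in the other coronary barcodes (126 UMIs), a ratio of 8.37 (95% interval 6.68 to 10.5). In the adult the levels were 102 and 40.8 CPM (390 and 141 UMIs), a ratio of 2.51 (2.06 to 3.06). The ratio was smaller in the adult, where the other coronary barcodes held more Sema3g than at P2. The artery class was also wider there, with 44.2% of the library against 12.1% at P2. Whether the ratio follows from the width of the class or from a change in arteries was not tested. The adult ratio was 1.97 after thinning and 2.00 as a mean over barcodes, both just under 2.

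Unc5b was at 111 CPM in P2 artery barcodes and 30.6 CPM in the other coronary barcodes, from 436 and 609 UMIs, a ratio of 3.61 (95% interval 3.19 to 4.09). In the adult it was at 83.0 and 51.5 CPM, from 316 and 178 UMIs, a ratio of 1.61 (1.34 to 1.95). A Unc5b UMI was found in 39.0% of P2 artery barcodes (35.4% to 42.7%) and in 12.5% of the other coronary barcodes (11.5% to 13.6%), at median depths of 4928 and 4525 UMIs. In P2 endocardial barcodes, at a median of 4532 UMIs, the share was 2.68%. After thinning the 3 shares were 5.91%, 1.61% and 0.462%.

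Robo4 had 346 UMIs in artery and 1135 in other coronary barcodes at P2, a CPM ratio of 1.54 (95% interval 1.36 to 1.74), and at 120.3 and 131 CPM in the adult, a ratio of 0.915 (0.802 to 1.04). Plxnd1 was lower in the artery class, at 0.841 times the other coronary level at P2 (0.767 to 0.921) and 0.664 times in the adult (0.592 to 0.743), and was not called. Sema3d was at 3.04 CPM in artery and 8.54 CPM in other coronary barcodes at P2 (12 and 170 UMIs, ratio 0.356, 0.181 to 0.639). In the adult it had 6 and 19 UMIs, a CPM ratio of 0.286 (0.0936 to 0.746).

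**Figure D3:**
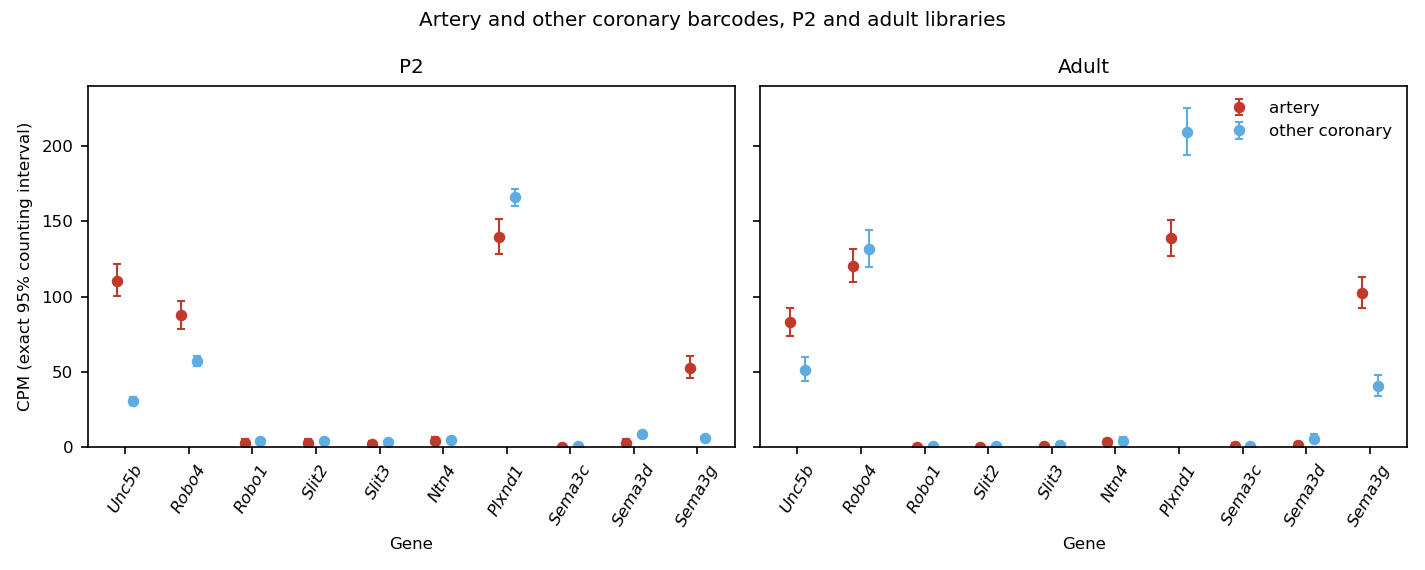
Level (CPM, y axis from 0) of the 10 guidance genes (x axis) in artery barcodes and in the other coronary barcodes at P2 and in the adult, with exact 95% counting intervals. Artery points of Unc5b and Sema3g lie above those of the other coronary barcodes in both libraries, and Plxnd1 lies below.

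The coronary class was further divided by marker genes into barcodes with 3 or more UMIs of vein (Vwf, Prss23, Nr2f2), large artery (Fbln5, Eln, Gkn3, Bmx), lymphatic (Prox1, Lyve1, Mmrn1, Flt4, Ccl21a) or angiogenic capillary genes (Kcne3, Apln, Esm1). These gates overlapped at P2, where 305 of 453 vein barcodes and 162 of 268 lymphatic barcodes also passed the large artery gate. Levels are therefore given for barcodes in 1 gate alone, in 2 or more gates and in none. Barcodes in none were shallower, with a median of 4168 UMIs at P2 against 5023.5 in large artery barcodes and 5413 in those of 2 or more gates.

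Sema3g was highest in barcodes of the large artery gate alone, among the groups with 1 gate, with 49.4 CPM at P2 (95% interval 41.7 to 58.2) and 298 CPM in the adult (261 to 340). Barcodes in no gate held 9.39 CPM (7.92 to 11.1) and 47.9 CPM (42.5 to 53.8). Of the large artery barcodes, 31.9% were in the artery class at P2 and 78.4% in the adult. Ntn4 at P2 stood at 18.2 CPM in large artery barcodes (13.6 to 23.8, 53 UMIs), 11.7 CPM in the lymphatic gate alone (4 UMIs), 10.9 CPM in 2 or more gates (29 UMIs) and 0.854 CPM in barcodes of no gate (0.455 to 1.46, 13 UMIs). In the adult it was at 49.8 CPM in 2 or more gates (16.2 to 116, 5 UMIs), 13.8 CPM in the vein gate alone (2.84 to 40.3, 3 UMIs), 10.6 CPM in the large artery gate alone (4.58 to 20.9, 8 UMIs) and 1.68 CPM in no gate (0.804 to 3.08, 10 UMIs), so the large artery group was not the highest there.

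Sema3d at P2 came mostly from barcodes with marker genes of 2 or more gates, which held 131 of its 182 coronary UMIs at 49.2 CPM (95% interval 41.1 to 58.4). It stood at 23.3 CPM in barcodes of the lymphatic gate alone (8 UMIs), 8.58 CPM in the vein gate alone (5 UMIs), 2.75 CPM in the large artery gate alone (8 UMIs) and 1.71 CPM in no gate (26 UMIs). In the mixed barcodes the vein gene Vwf was at 263 CPM, the lymphatic genes Lyve1 and Prox1 at 444 and 161 CPM and the large artery gene Fbln5 at 468 CPM, so they cannot be given to one vessel type. In the adult, barcodes of the vein gate alone held 4 Sema3d UMIs (18.4 CPM, 5.01 to 47.1) and those of no gate 11 (1.84 CPM, 0.920 to 3.30).

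Robo4 was lower in the vein, lymphatic and large artery groups than in barcodes of no gate. At P2 it stood at 37.8, 23.3 and 41.9 CPM in these 3 groups and at 71.8 CPM in no gate, and the angiogenic capillary group held 72.4 CPM. In the adult the large artery group held 82.2 CPM (95% interval 63.0 to 105) and barcodes of no gate 135 CPM (126 to 145). The adult vein group at 82.7 CPM (49.0 to 131) and lymphatic group at 56.7 CPM (11.7 to 166, 3 UMIs) had intervals that overlapped that of no gate. Against all other coronary barcodes at P2, 4 of 8 guidance genes were called in the full vein gate, where 7.5% of all genes were called. In the large artery gate 5 of 9 were called (12.2% of all) and in the lymphatic gate 3 of 5 (9.28%). In the angiogenic capillary gate 2 of 5 were called (7.06%). They were Sema3d (0.392, 7 UMIs) and Sema3g (0.270, 9 UMIs), both lower. These reached the UMI minimum mainly through the other coronary barcodes, with 175 and 326 UMIs. Robo4 was called lower in the vein and lymphatic gates, and Sema3g lower in the lymphatic gate. Slit2 and Ntn4 were called higher in the vein and large artery gates, and Slit3 and Sema3g higher in the large artery gate. The full gates share barcodes, so these counts are not separate results for each vessel type. Sema3d was called higher in the vein, large artery and lymphatic gates, from 131, 121 and 126 UMIs. Of these, 5, 8 and 8 were in barcodes of that gate alone. Ntn4, called higher in the vein gate from 24 UMIs, had 1 UMI in the vein gate alone. In the adult, 1 of 4 was called in the full vein gate and 1 of 4 in the large artery gate (9.04% and 8.89% of all genes). In the large artery gate it was Sema3g. In the vein gate it was Unc5b at 13.1 against 70.6 CPM, a ratio of 0.186 (95% interval 0.0505 to 0.479) from 4 UMIs. The adult vein gate held 125 barcodes, so genes reached the UMI minimum mainly through the other coronary barcodes (486 UMIs for Unc5b). Sema3d (12.1, 4.43 to 30.3), Slit3 (11.3, 1.83 to 52.9) and Ntn4 (8.33, 2.96 to 20.7) had higher levels but did not reach it. Robo1, Slit2 and Sema3c, with 0 UMIs in the gate, did not either. At P2, Slit3 (4.68, 2.81 to 7.66) and Sema3c (0.501, 0.0119 to 3.26) were under the minimum in this gate. Unc5b in the full angiogenic capillary gate stood at 38.3 CPM at P2, against 44.7 CPM in the other coronary barcodes (0.856, 0.677 to 1.07). Its ratio there was 1.53 in the adult (0.728 to 2.83, 10 UMIs) and 0.275 at E15 (0.00691 to 1.56, 1 UMI), both under the minimum. This gate adds up Esm1 with Kcne3 and Apln, and Apln stood at 486 CPM in P2 barcodes of this gate alone. The study reports that tip cells with Esm1 and those with Apln were separate at E12. Barcodes with Esm1 were not set apart, so these ratios do not give their Unc5b level.

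**Figure D4:**
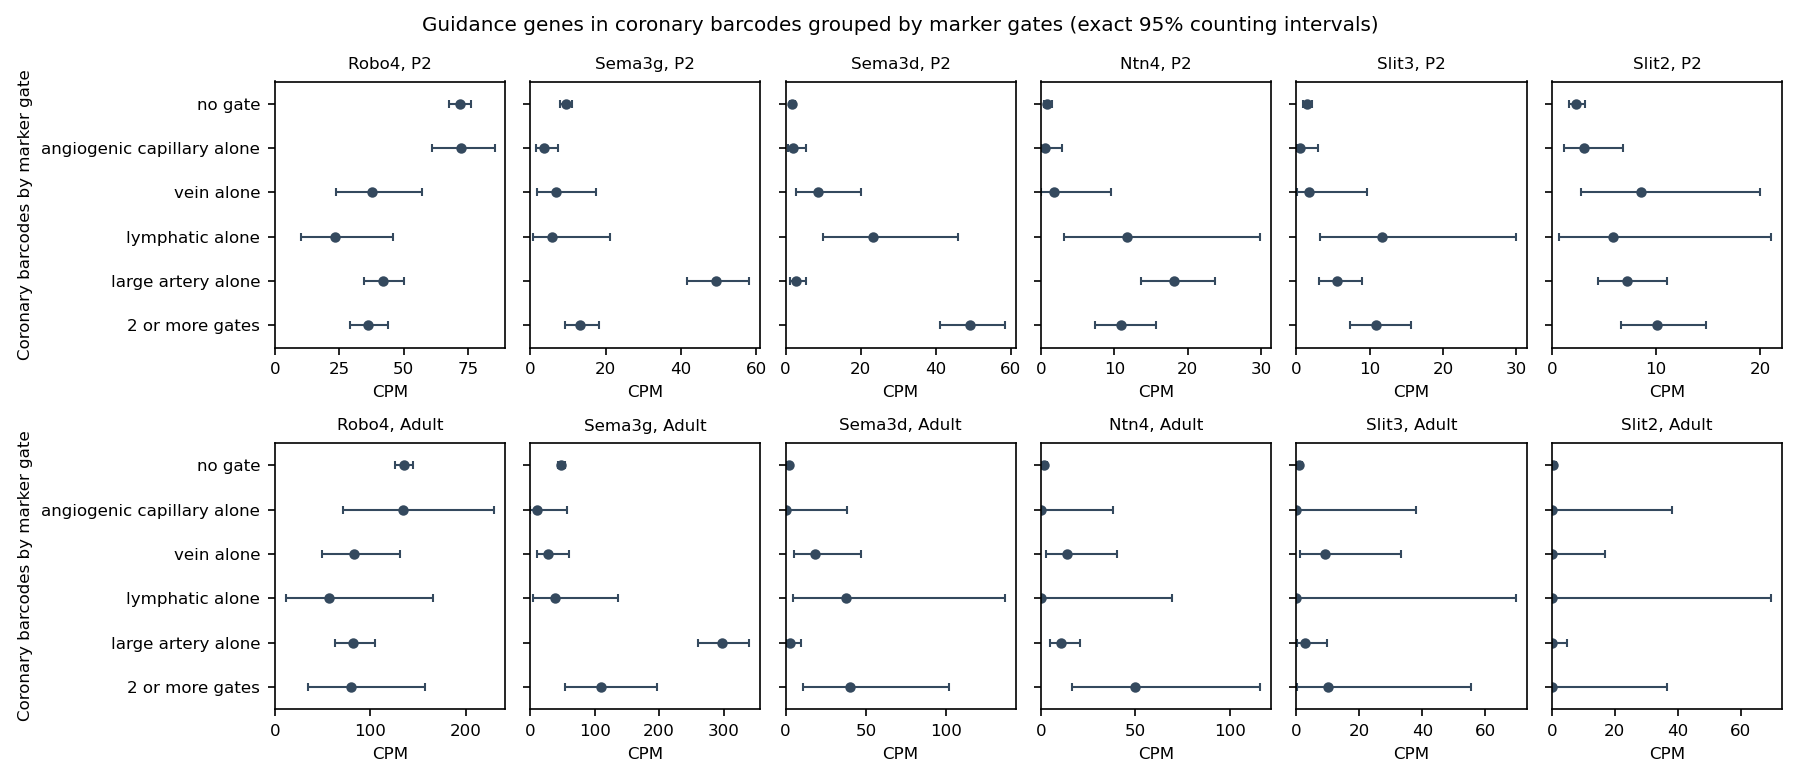
Level (CPM, x axes from 0, scaled per panel) of 6 guidance genes in P2 and adult coronary barcodes grouped by marker gates (y axis), with exact 95% counting intervals. Sema3g and Ntn4 stand highest at P2 in the large artery gate alone, Sema3d in barcodes of 2 or more gates, and Robo4 in barcodes of no gate or of the angiogenic capillary gate.

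Non-endothelial barcodes were compared with endothelial barcodes at E12 and E15, where they made up 52.3% and 30.8% of the libraries. At E12, 6 of 9 genes were called, where 11.4% of 11248 genes were called, and at E15 6 of 10, where 7.05% of 9790 genes were. Sema3c, Sema3d and Slit3 were higher in non-endothelial barcodes and Robo4 was lower at both stages. Unc5b was also higher and Plxnd1 lower at E12, and Robo1 higher and Sema3g lower at E15. Endothelial barcodes with exactly 1 UMI of Pecam1, Cdh5 and Egfl7 numbered 1261 at E12 and 1640 at E15, so many barcodes lay near the limit.

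Sema3c stood at 29.2 CPM in non-endothelial and 7.54 CPM in endothelial barcodes at E12 (121 and 30 UMIs), a ratio of 3.87 (95% interval 2.58 to 5.99), and at 13.2 and 2.78 CPM at E15 (27 and 14 UMIs), a ratio of 4.75 (2.40 to 9.80). The E12 free RNA level was 45.2 CPM (30.1 to 65.4). Sema3d was at 9.65 and 4.02 CPM at E12, a ratio of 2.40 (1.31 to 4.59), and at 14.2 and 2.18 CPM at E15, a ratio of 6.49 (3.15 to 14.4). Its E12 free RNA level was 4.85 CPM (0.999 to 14.2, 3 UMIs). Slit3 was at 15.9 and 5.28 CPM at E12, a ratio of 3.02 (1.82 to 5.19), and at 13.7 and 5.56 CPM at E15, a ratio of 2.46 (1.41 to 4.31).

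Robo4 was at 1.21 CPM in non-endothelial barcodes at E12 (5 UMIs) against 10.6 CPM in endothelial barcodes (42 UMIs), a ratio of 0.114 (95% interval 0.0353 to 0.289). At E15 it was at 8.31 and 27.2 CPM, a ratio of 0.305 (0.173 to 0.507). The share of barcodes with a Robo4 UMI was 0.167% of non-endothelial and 1.39% of endothelial barcodes at E12, at median depths of 1217 and 1268 UMIs. Plxnd1 was at 68.5 and 223 CPM at E12, a ratio of 0.308 (0.268 to 0.352), and at 113 and 203 CPM at E15, a ratio of 0.558 (0.482 to 0.644). Its E12 free RNA level was 184 CPM (152 to 221), higher than its level in non-endothelial barcodes.

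Unc5b and Robo1 were at 73.4 and 53.8 CPM in E12 non-endothelial barcodes and at 32.9 and 28.9 CPM in endothelial barcodes, ratios of 2.23 (95% interval 1.81 to 2.76) and 1.86 (1.48 to 2.35). At E15 the Unc5b levels were 49.4 and 40.3 CPM, a ratio of 1.22 (0.955 to 1.56), and the Robo1 levels 25.9 and 8.34 CPM, a ratio of 3.11 (2.03 to 4.77). Slit2 was at 36.0 and 32.9 CPM at E12 (1.09, 0.858 to 1.39) and at 54.3 and 29.2 CPM at E15 (1.86, 1.44 to 2.39).

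**Figure D5:**
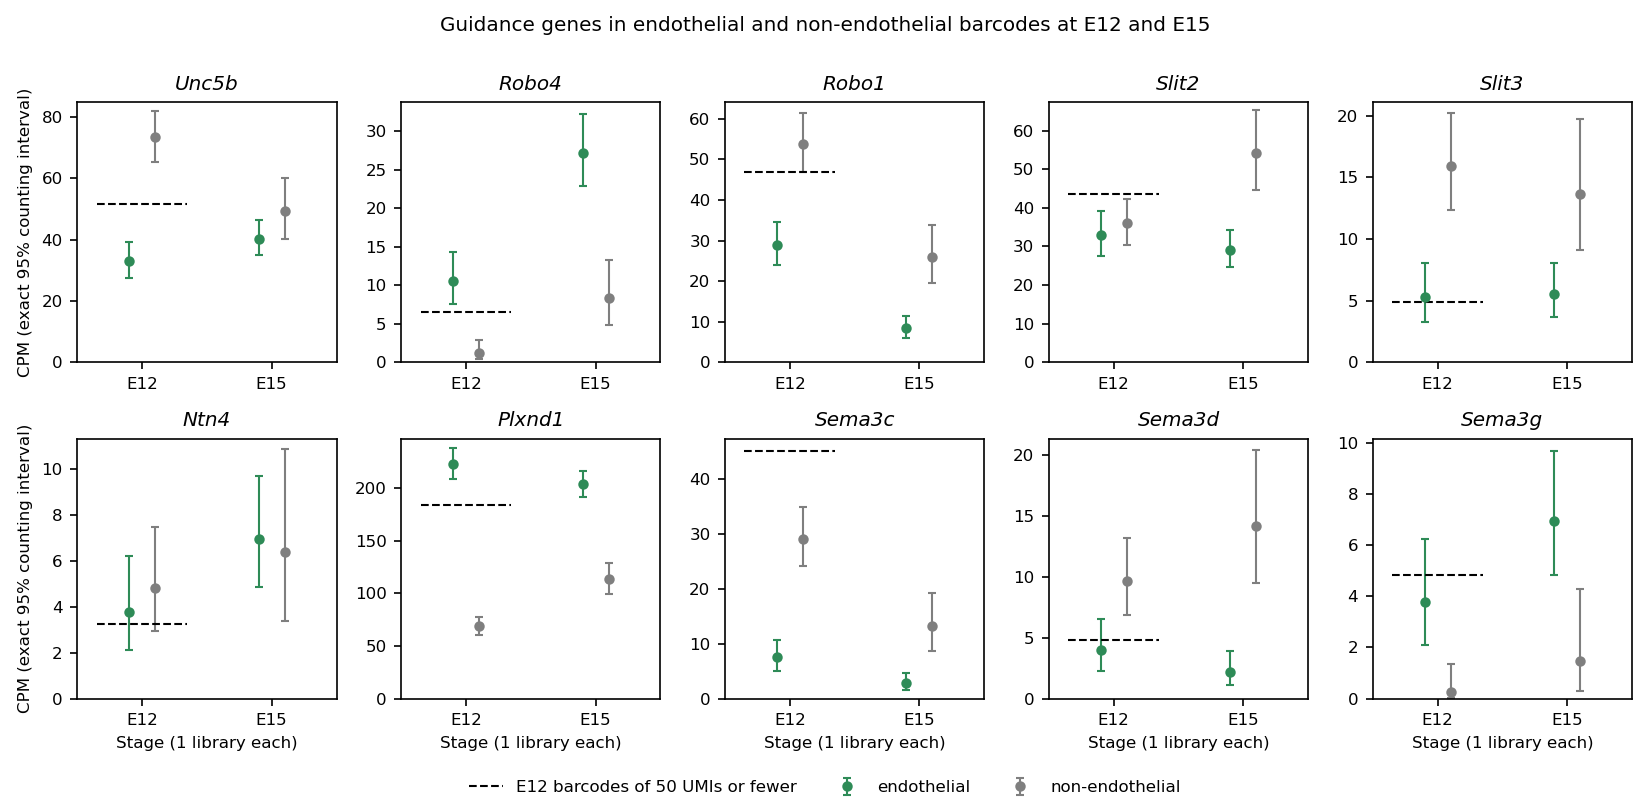
Level of each guidance gene (CPM, y axis from 0) in endothelial and non-endothelial barcodes at E12 and E15 (x axis), with exact 95% counting intervals, and its level in E12 barcodes of 50 UMIs or fewer (dashed line, free RNA). Robo4 and Plxnd1 are higher in endothelial barcodes, and Sema3c, Sema3d and Slit3 in non-endothelial barcodes. The dashed line of Unc5b, Robo1, Slit2, Sema3c, Sema3d and Sema3g lies above their E12 endothelial level, where Sema3d and Sema3g rest on 3 free RNA UMIs each.

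Among marker-gated embryonic groups, barcodes with 3 or more UMIs of mesenchyme and fibroblast genes numbered 2110 at E12, with 78.8% of them non-endothelial and Pecam1 at 35.8 CPM. They held Unc5b at 90.6 CPM (95% interval 81.0 to 101), Robo1 at 72.5 CPM (63.9 to 81.8) and Robo4 at 0.560 CPM (0.0678 to 2.02). At E15 the 999 mesenchyme barcodes held Slit2 at 78.4 CPM (65.4 to 93.3) and Unc5b at 72.3 CPM (59.9 to 86.6). The 155 barcodes of the mural gate, which marks pericytes and smooth muscle, held Slit2 at 112 CPM (78.6 to 155). The 50 barcodes of the E12 epicardium gate held 12 Sema3d UMIs, or 133 CPM (68.8 to 233), and 7 Slit3 UMIs, or 77.7 CPM (31.2 to 160).

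Coronary barcodes were next compared between neighbouring stages. Between E15 and E12, 1 of 3 genes was called (9.1% of 2934 genes). It was Unc5b, at 81.5 CPM at E15 against 12.3 CPM at E12, a ratio of 6.60 (95% interval 2.21 to 32.4) that rests on 3 E12 UMIs. The E12 coronary class held 242947 UMIs against 1680024 at E15, so a gene reached the UMI minimum mainly through its E15 count. Genes that did not reach it, such as Robo1 (0.603) and Sema3d (0.193), had intervals that included 1. The balance of directions is not read from these stages. Between P2 and E15, 1 of 5 was called (19.4% of 9197 genes). It was Sema3d at 7.70 against 2.38 CPM, a ratio of 3.23 (lower end 1.24) that rests on 4 E15 UMIs. The median gene was higher at P2 by 0.37 on the log2 scale. The E15 coronary class held 1680024 UMIs against 23645578 at P2, so a gene reached the UMI minimum mainly through its P2 count. Robo1 (0.256, upper end 0.416) and Slit2 (0.284, upper end 0.465) were lower at P2 but did not reach it. Slit3, Ntn4 and Sema3c, with intervals that included 1, did not either. Nothing on the balance of directions is read from this pair of stages. Between adult and P2, 6 of 9 were called (22.6% of 11761 genes). Robo4 was 2.03-fold (lower end 1.86) and Sema3g 5.21-fold (4.54 to 6.00) higher in the adult. Robo1, Slit2, Slit3 and Sema3d were lower, at 0.110, 0.0685, 0.406 and 0.416 times the P2 level. These ratios rest on 3, 2, 9 and 23 adult UMIs. Their upper ends were 0.331, 0.254, 0.813 and 0.643. The adult coronary class held 7188672 UMIs, so these genes reached the UMI minimum mainly through their P2 counts. Thinning gave no ratio for Robo1, Slit2 and Slit3. The balance of directions is not read from this pair either.

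Endocardial barcodes differed between stages as well. Between E15 and E12, 6 of 9 genes were called (8.53% of 10116 genes). Unc5b, Robo1, Sema3c and Sema3d were lower at E15, at 0.415, 0.348, 0.373 and 0.368 times the E12 level, and Robo4 and Ntn4 higher, at 4.72 (lower end of the 95% interval 2.26) and 2.02 times (0.764 to 5.92). With stricter class limits Unc5b was in the opposite direction (1.29), and after thinning Ntn4 was at 0.994. With endothelial barcodes only, 2 of the genes were called, and likewise 2 with mesenchyme left out, where both settings took barcodes from the E12 and the E15 class. Between P2 and E15, 5 of 7 were called (17% of 10149 genes). Slit3 (3.15, 1.91 to 5.49) and Ntn4 (2.70, 1.52 to 5.16) were higher at P2, where the median gene was higher by 0.25 on the log2 scale. Unc5b, Robo1 and Slit2 were lower, at 0.380, 0.322 and 0.241 times the E15 level. Slit3 was at 0.944 after thinning, and Robo1 at 1.34 with stricter class limits, both in the opposite direction. Between adult and P2, Plxnd1 alone had enough UMIs and was not called (15.9% of 3293 genes).

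Within coronary barcodes, those with a Unc5b UMI were set beside those without. At P2, Sema3g was at 28.5 CPM with and 10.9 CPM without Unc5b (ratio 2.62, 95% interval 2.08 to 3.28), and Sema3d, which was lower in the artery class, at 13.8 and 6.30 CPM (2.19, lower end 1.58). Robo1 had a ratio of 1.86 (1.14 to 2.96) and Robo4 of 1.24 (1.09 to 1.40). In the adult the Sema3g ratio was 1.84 (1.48 to 2.28) and the Robo4 ratio 1.21 (1.00 to 1.46), and at E15 the Sema3g ratio was 3.07 (1.08 to 7.70) from 7 UMIs. The E15 Robo4 ratio was 0.623 (0.222 to 1.42), from 6 UMIs. The artery class made up 36.1% of P2 coronary barcodes with a Unc5b UMI and 10.5% of those without. Their median depths were 5020 and 4483 UMIs. In dividing coronary barcodes, with 3 or more UMIs of Top2a, Mki67, Ccnb1, Ube2c and Cenpf, Unc5b was lower than in those without such a UMI, at 44.0 against 96.8 CPM at E15 (0.455, 0.245 to 0.788) and at 32.3 against 49.4 CPM at P2 (0.654, 0.554 to 0.769). Other guidance genes were lower in dividing barcodes at P2 too, with ratios of 0.254 for Slit2 (8 UMIs), 0.314 for Ntn4 (10 UMIs), 0.344 for Slit3 (8 UMIs), 0.529 for Sema3g and 0.569 for Sema3d, while Robo4 was at 1.00 and Plxnd1 at 1.07. Dividing barcodes were deeper, with medians of 7110 and 4151 UMIs at P2, and the artery class made up 8.51% of dividing and 16.7% of the other barcodes.

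Other genes of the guidance pathways were counted from lists of 28 ligands, 17 receptors and 15 intracellular effectors, of which 27, 17 and 15 were in the files. In coronary against endocardial barcodes at P2, 2 of 14 ligands with enough UMIs were higher and 4 lower, 1 of 9 receptors higher and 4 lower, and 0 of 13 effectors higher and 1 lower, where 9.86% of all genes were higher and 8.49% lower. At E15 the counts were 1 higher and 3 lower of 11 ligands, 1 and 5 of 10 receptors, and 0 and 2 of 11 effectors, beside 5.34% and 11.5% of all genes. At E12 and in the adult few genes of the lists reached the UMI minimum, mainly through the larger class. At E12, 1 of 2 ligands, 1 of 2 receptors and 1 of 5 effectors were lower (10.6% of all genes), and in the adult 3 of 3 ligands, 2 of 3 receptors and 1 of 5 effectors were higher (16.7% of all genes). In artery against other coronary barcodes at P2, 2 of 13 ligands were higher and 1 lower, 0 of 8 receptors higher and 2 lower, and 0 of 13 effectors were called in either direction, beside 2.34% of all genes higher and 3.12% lower. In the adult 0 of 9 ligands were higher and 2 lower, 0 of 8 receptors higher and 1 lower, and 0 of 11 effectors called, beside 2.02% and 3.13% of all genes.

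Genes of these lists are named where they were called in the same direction at 3 or more stages. Sema7a, a membrane-bound semaphorin, was higher in coronary barcodes, with 24.4 against 0.409 CPM at E15 (41 against 1 UMI), 33.8 against 3.47 CPM at P2 and 97.4 against 4.79 CPM in the adult. The neuropilin Nrp2, a co-receptor for semaphorins and VEGFs, was also higher, with ratios of 5.05, 4.25 and 5.38 at these stages. Plxnc1, the plexin that binds Sema7a, was lower in coronary barcodes, at 0.230 times the endocardial level at E12, 0.107 at E15 and 0.148 at P2. Flrt2, a ligand that can bind Unc5 receptors, was lower as well, at 0.360, 0.259 and 0.271 times. Within the coronary class Nrp2 was lower in artery barcodes, with 72.5 against 153 CPM at P2 (0.472, 95% interval 0.417 to 0.534) and 117 against 246 CPM in the adult (0.475, 0.423 to 0.534). Its calls at E12 and E15 rest on artery classes of mostly non-endothelial barcodes.

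For the 5 members with a mean of 20 CPM or more over the 16 class and stage levels, the genes with the most similar pattern were sought among 5933 genes by Pearson correlation of log2(CPM + 10). For Robo4 they were Ppp1r16b (0.955), Ccdc85b (0.955) and Ift122 (0.953), and for Plxnd1 Myzap (0.931), Ecscr (0.876) and Thsd1 (0.869). For Sema3g they were Stmn2 (0.949), 8430408G22Rik (0.948) and the arterial connexin gene Gja5 (0.928). For Slit2 they were Drap1 (0.952), Serf1 (0.941) and then Ergic1, and for Unc5b, where likeness was lower, Meox1 (0.818), Plekhg2 (0.766) and Frmd4a (0.751). The 16 levels share 4 libraries and some barcodes. They include the E12 and E15 artery and the P2 and adult non-endothelial levels, whose classes failed the label check, and the correlations are given as a description.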

How the data were processed

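RNA was measured in 4 libraries, 1 per stage (E12, E15, P2, adult), and samples were grouped by the labelled stage. The authors made 3′ libraries with version 2 chemistry of 10x Genomics and mapped reads with Cell Ranger 2.2 to mm10, per the methods and the submitters' processing notes. The deposited values are raw counts of UMIs per gene and barcode for 27998 genes, not normalized. The E12 file held all barcodes, so those with at least 452 UMIs were kept, by the order-of-magnitude rule (3000 expected cells, quantile 0.99, share 0.1). The other files were used as deposited, with no filter and no removal of doublets. The study's limits on UMIs, genes and mitochondrial share and a Scrublet score limit of 0.15 were an alternative. Scrublet at the 10x Genomics rate marked 6.07%, 9.01%, 4.15% and 2.22% of barcodes.

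UMIs were summed per class and scaled to CPM in Python 3.11.15 (numpy 2.4.6, scipy 1.17.1, pandas 2.3.3, scanpy 1.11.5, matplotlib 3.10.9). The ratio script was tested on simulated data. Genes named are the 10 members, other guidance genes called in the same direction at 3 or more stages (at most 8 per comparison), and the 3 genes most similar in pattern to each member with a mean of 20 CPM. The members and gene lists were chosen with earlier results of these data known. Alternatives were the study limits, those limits with Scrublet, class limits raised by 2 UMIs, thinning to 500 UMIs, another total behind CPM, a mean over barcodes, a higher UMI minimum at E12, fewer class markers, artery barcodes within the coronary class, no UMI minimum and leaving out the barcode with most UMIs. Endothelial barcodes only and mesenchyme left out were added after seeing the data.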

Additional observations from a re-analysis of the deposited data

Results flagged for a closer look

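The coronary level of Unc5b was 0.305 times the endocardial level at E12, and 4.87 times at E15, 6.93 times at P2 and 7.12 times in the adult, so the direction at E12 was opposite to that of the other stages. The difference between stages was not tested, since each stage had 1 library. The E12 ratio rests on 3 coronary UMIs, and it was 0.874 with barcodes of 3 or more mesenchyme UMIs left out and 0.479 with endothelial barcodes only.

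E12 barcodes of at most 50 UMIs, which none of the comparisons used, held several of the guidance genes above the limit that a count of 0 allows. Their levels were 51.7 CPM for Unc5b, 6.46 for Robo4, 46.8 for Robo1, 43.6 for Slit2, 184 for Plxnd1 and 45.2 for Sema3c. Fabp4 stood at 677 CPM in the same barcodes, against 51.5 CPM in E12 endothelial and 10.4 CPM in E12 non-endothelial barcodes. The part of free RNA in the E12 class levels was not tested.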

How the results depend on the processing

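Of 49 called ratios, 45 kept their side of 1 and 32 stayed past 2-fold under each alternative that gave a value, out of 13. The reversals were in endocardial barcodes. Unc5b, E15 against E12, was 1.29 with stricter class limits and Ntn4 0.994 after thinning. Robo1, P2 against E15, was 1.34 with stricter limits and Slit3 0.944 after thinning. The cause was not tested.

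Counts of called members moved as follows. Thinning to 500 UMIs, which leaves fewer genes over the UMI minimum, gave 2 in coronary against endocardial barcodes at P2 (from 7) and 0 in the adult (from 3), 0 in artery barcodes at P2 and in the adult (from 3 and 2) and 0 in non-endothelial barcodes at E15 (from 6). Between coronary stages it gave 0 for E15 against E12 and 1 for adult against P2 (from 1 and 6), and between endocardial stages 0 for E15 against E12 and 1 for P2 against E15 (from 6 and 5). Stricter class limits gave 1 in the adult for coronary against endocardial, 1 for adult artery, 3 for non-endothelial E15, 0 and 0 for coronary E15 against E12 and P2 against E15, and 0 and 1 for the same endocardial pairs. With no UMI minimum the counts were 5 at E12 and 8 in the adult for coronary against endocardial, 5 for adult artery, 4 and 5 for the first 2 coronary stage pairs and 5 for adult against P2 endocardium (from 0). The mean over barcodes gave 1 for adult artery and 2 for coronary E15 against E12, and leaving out the barcode with most UMIs gave 2 for the latter. The study limits with Scrublet gave 0 for coronary and 3 for endocardial P2 against E15, and the total without mitochondrial, ribosomal and hemoglobin genes 2 for the coronary pair. Endothelial barcodes only, added after seeing the data, gave 1 for adult artery and 2 for endocardial E15 against E12, and mesenchyme left out, also added, 2 there and 3 for P2 against E15. No paired analysis was possible because each stage had 1 library, so no replicate could be left out either. Depth limits the E12 coronary values, with 242947 UMIs in 113 barcodes, and the adult endocardial values, with 208774 UMIs in 75 barcodes.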

Other observations

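Barcodes with valve genes were not set apart in the comparisons. At P2, 376 barcodes, 0% of them non-endothelial, had 3 or more UMIs of Cldn11, Enpp2, Pthlh and Wnt4. They held Ntn4 at 24.1 CPM (55 UMIs), Slit2 at 15.3 CPM (35 UMIs), Slit3 at 12.7 CPM (29 UMIs) and Unc5b at 34.5 CPM (79 UMIs).

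In the adult library Sema3c had 11 UMIs in the 133 barcodes without a UMI of Pecam1, Cdh5 and Egfl7, 101 of which were also coronary, or 42.8 CPM (95% interval 21.4 to 76.6), against 6 UMIs in the 4109 endothelial barcodes, or 0.812 CPM. The pericyte gene Rgs5 stood at 2365 CPM in these 133 barcodes and at 152 CPM in endothelial barcodes.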
